A study of Mus musculus with 6 samples.

Results

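Microglia of acute non-helpless mice were compared with microglia of non-shocked mice from the same deposited batch, both from the hippocampus. The members were the cells that the authors' metadata name as microglia in the acute non-helpless library, all of batch 2, and the cells so named in the non-shocked library whose batch number is 2. They numbered 569 and 123 cells, together 692 of 2721 microglia and of 3005 cells in the series. The acute non-helpless mice, strain BC57BL/6 as the labels spell it, had been given 180 inescapable shocks at 0.3 mA, were then tested for escape in 30 trials of 24 s each, and did not become helpless. The non-shocked mice, of the same strain, had received no shocks. In both, live CD45-positive cells were sorted from dissected hippocampi after Percoll enrichment and profiled with a droplet-based 5' single-cell kit that counts unique molecular identifiers (UMIs). The other groups, given the same shocks and escape trials, were acute helpless mice and chronic non-helpless, non-recovered and recovered mice, with 1 library each. The chronic groups also had a retest at 3 weeks, so time after shock differs between acute and chronic libraries. A further 429 non-shocked microglia came from batch 3. Age, the number of mice pooled in a library and what a batch stands for are not given in the sources used here.

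Microglia are the resident macrophages of the brain, and they survey the tissue through receptors such as P2ry12 and Cx3cr1. Stress raises circulating glucocorticoids, whose receptor directly switches on genes such as Tsc22d3 and Fkbp5 in many cell types. Cells under protein-damaging stress switch on heat shock chaperones through the transcription factor HSF1. Immediate early genes such as Fos respond within minutes to many stimuli.

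With 1 library a side, the spread between mice is unknown and the groups were not tested against each other. Levels are UMIs summed over the cells of a side per 1000000 UMIs of that sum (CPM), and all intervals are exact 95% intervals that cover counting error only. Response group and library cannot be told apart. The acute non-helpless side held 2267306 UMIs, with a median of 3676 per cell (quartiles 2654 and 4711). The non-shocked side held 174450 UMIs, with a median of 905 per cell (quartiles 388.5 and 2024.5). Of the acute non-helpless cells 0 of 569 had under 500 UMIs, against 40 of 123 non-shocked cells. Ribosomal protein genes took 7.78% of UMIs in acute non-helpless and 3.56% in non-shocked microglia. Cells with under 2.5% ribosomal protein UMIs, called ribosome-poor here, made up 8.96% (6.75 to 11.6) of acute non-helpless and 64.2% (55.1 to 72.7) of non-shocked microglia. Mitochondrially encoded genes took 1.47% of UMIs in acute non-helpless and 1.69% in non-shocked cells. The authors' clusters 1, 2, 3 and 5 held 234, 150, 64 and 121 of the acute non-helpless cells, while cluster 6 held 122 of the 123 non-shocked cells. No cluster therefore had enough cells on both sides for a comparison within it. Whether the batch 2 non-shocked cells are a library of lower quality was not tested, and every ratio below rests on them. The part of depth, of ribosomal protein share and of cluster in the differences below was not tested, and each main result is also given within ribosome-poor cells and within the remaining, ribosome-rich cells. This division does not match the sides in depth. Median UMIs were 3843 in acute non-helpless and 1128.5 in non-shocked ribosome-rich cells, and 1518 and 812 in ribosome-poor cells. The ribosomal protein share of ribosome-rich cells was also lower on the non-shocked side.

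**Figure D1:**
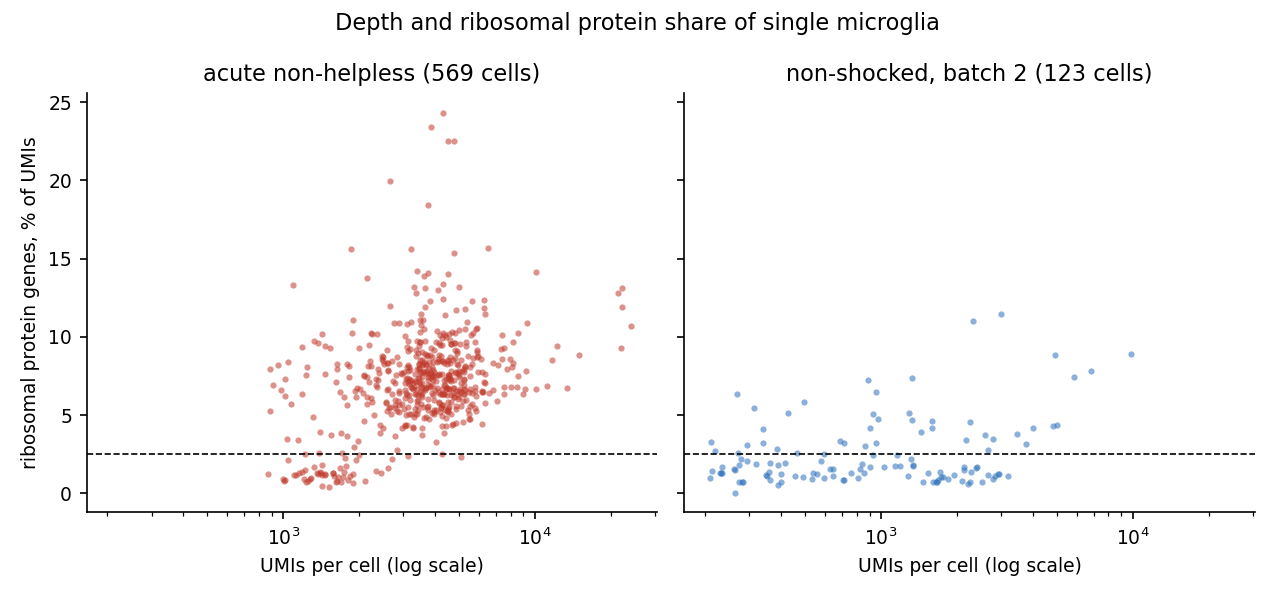
Each point is 1 microglial cell, with its UMIs on a log axis and its share of UMIs in ribosomal protein genes in percent, for 569 acute non-helpless cells on the left and 123 non-shocked batch 2 cells on the right. The dashed line is at 2.5%, under which lie 51 acute non-helpless and 79 non-shocked cells.

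Both sides carried the markers of microglia. All 8 microglial markers were detected, at 38497 CPM in sum in acute non-helpless and 32989 CPM in non-shocked cells. Markers of border-associated macrophages summed to 285 CPM in acute non-helpless cells, with 5 of 8 detected, and to 602 CPM in non-shocked cells, with 2 of 8 detected. The defining markers Pf4, Cd163 and Lyve1 were at 0 on both sides, and 622 of the 647 acute non-helpless UMIs and 103 of the 105 non-shocked UMIs of this list were from Stab1, a scavenger receptor. Of 10 neuronal markers 1 was detected in acute non-helpless and 0 in non-shocked cells, and the 9 neutrophil markers had 0 UMIs in acute non-helpless and 3 UMIs in non-shocked cells. T cell markers had 106 CPM (241 UMIs) in acute non-helpless microglia, with 10 of 10 detected. In non-shocked microglia they had 126 CPM (22 UMIs), with 4 of 10 detected. Scrublet marked 11 acute non-helpless and 1 non-shocked microglia as doublets. The 2 sides shared 0 cell barcodes.

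Over all cells, 1822 genes had a mean of at least 100 CPM of the 2 sides, and these are the genes compared. Of them 195 (10.7%) were at least 2-fold higher and 261 (14.3%) at least 2-fold lower in acute non-helpless microglia, and the median log2 ratio was -0.022. Within ribosome-rich cells the counts were 85 higher (4.84%) and 172 lower (9.78%) of 1758 genes, and within ribosome-poor cells 166 higher (8.07%) and 136 lower (6.61%) of 2056 genes. Of the genes called over all cells, 54 of the 195 higher genes (27.7%) and 132 of the 261 lower genes (50.6%) were also called in ribosome-rich cells, where they made up 63.5% and 76.7% of the calls. In all cells, ribosome-rich cells and ribosome-poor cells alike, 15 genes were at least 2-fold higher and 19 at least 2-fold lower. For scale, the 123 batch 2 non-shocked microglia set against the 429 of batch 3, which carry the same label, had 174 genes at least 2-fold higher and 86 at least 2-fold lower of 1851. The 15 genes with the highest ratios were Hspa1a, Dnajb1, Dusp1, Cd74, Fos, Ddit4, Vamp8, Sec61b, Lyz2, Snrpg, Rgs1, Dnaja1, Tsc22d3, Snrpb and Zfp36. The 15 with the lowest were Dip2b, Cerk, Phf20l1, Rapgef5, Lrrc58, Kmt2a, Herc1, Dock4, Naip6, Setd5, Fry, Ankhd1, Cdk6, Pwwp2a and Nrd1.

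**Figure D2:**
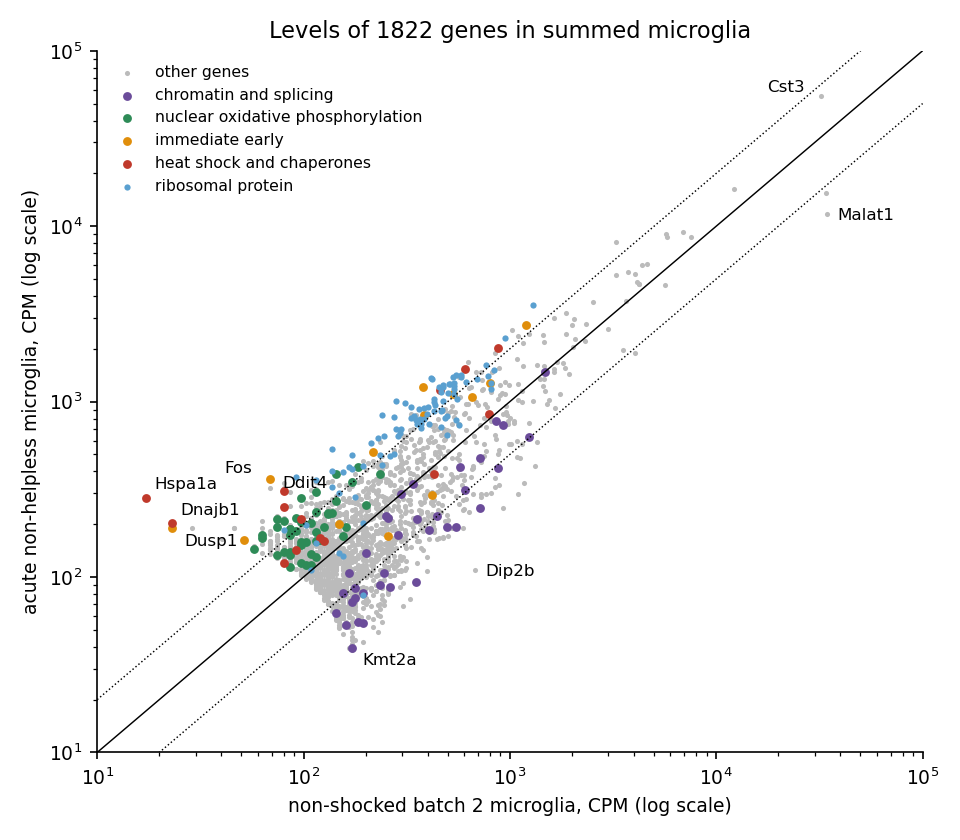
Each point is 1 of 1822 genes, with its CPM in acute non-helpless microglia on the vertical and in non-shocked batch 2 microglia on the horizontal log axis, coloured by list. The solid line marks equal levels and the dotted lines a 2-fold difference. Hspa1a, with 0 UMIs in the non-shocked cells, is drawn at the level of 3 UMIs, and heat shock, immediate early, ribosomal protein and oxidative phosphorylation genes lie mostly above the solid line while chromatin and splicing regulators lie on or below it.

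Heat shock genes held the largest difference of any gene. Hspa1a, which encodes the stress-inducible HSP70 chaperone, had 284 CPM (262 to 306; 643 UMIs) in acute non-helpless and 0 CPM (upper limit 21.1; 0 UMIs) in non-shocked microglia. Set against 3 counts over the non-shocked side, it was 16.5-fold higher, and the exact interval of the ratio as counted began at 13.4. Its UMIs were spread over 179 of the 569 acute non-helpless cells, with at most 15 in a cell. Dnajb1, the HSP40 co-chaperone that stimulates HSP70, had 203 CPM (185 to 222) in acute non-helpless and 22.9 CPM (6.25 to 58.7; 4 UMIs) in non-shocked microglia, a ratio of 8.85 (3.43 to 32.6). Dnaja1, another HSP40, had 311 CPM (288 to 335) in acute non-helpless and 80.3 CPM (43.9 to 135) in non-shocked cells, a ratio of 3.87 (2.29 to 7.12). For all 3 genes the intervals of the 2 levels lay apart. Among the other members, Hspa8, the housekeeping HSC70, had 1543 CPM in acute non-helpless and 608 CPM in non-shocked cells (ratio 2.54, 2.09 to 3.11). The polyubiquitin gene Ubb had 2024 CPM in acute non-helpless and 877 CPM in non-shocked cells (ratio 2.31, 1.96 to 2.73). Hspa5, the HSP70 of the endoplasmic reticulum, had 853 CPM in acute non-helpless and 791 CPM in non-shocked cells, with a ratio of 1.08 whose interval (0.907 to 1.29) held 1.

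Of 14 heat shock and chaperone genes measured, 8 were at least 2-fold higher and 0 lower, beside 10.7% and 14.3% of all genes compared, and their median log2 ratio was 1.17. The remaining 3 of the 8 were Hsp90aa1 and Hsp90ab1, the cytosolic HSP90 chaperones, with ratios of 2.19 (1.35 to 3.78) and 2.54 (2.04 to 3.22), and the mitochondrial co-chaperonin Hspe1, with 3.11 (1.84 to 5.72). They were named after their values were seen. Another 15 of the 29 genes of the list were under 100 CPM. Hspa1a and Dnajb1 passed that minimum through their level in acute non-helpless cells, so their count among the higher genes is partly set by it. With a minimum of 50 CPM the median was 0.64. The median was 1.03 in ribosome-rich cells, with 8 of 15 genes higher beside 4.84% of all genes, and 0.81 in ribosome-poor cells, with 6 of 14 higher beside 8.07%. Hspa1a was at 0 UMIs in both kinds of non-shocked cell, against 279 CPM in ribosome-rich and 403 CPM in ribosome-poor acute non-helpless cells. Set against 3 counts, these were 8.12-fold and 11.7-fold higher, which are not lower limits. Dnaja1 kept ratios of 3.90 (1.88 to 9.74) in ribosome-rich and 3.25 (1.34 to 9.0) in ribosome-poor cells. Per cell, the list took a median of 0.83% of UMIs in acute non-helpless and 0.40% in non-shocked microglia. By contrast the 16 genes of the unfolded protein response of the endoplasmic reticulum, such as Hsp90b1 and Pdia3, had 0 members at least 2-fold apart and a median of -0.0065.

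The promoter windows of this group are shown because Hspa1a and Hspa1b are near-identical gene copies and because the members differed together. They come from RefSeq (build GRCm38.p6), run from 250 bases before to 50 after the annotated start, and are printed on the strand of the gene with the 2-unit heat shock element GAANNTTC, or TTCNNGAA, in capitals. Hspa1a lies at chr17:34972107-34972406 and Hspa1b at chr17:34959189-34959488, both on the minus strand, and Dnaja1 at chr4:40722218-40722517 on the plus strand, the first of its 3 windows.
Hspa1a: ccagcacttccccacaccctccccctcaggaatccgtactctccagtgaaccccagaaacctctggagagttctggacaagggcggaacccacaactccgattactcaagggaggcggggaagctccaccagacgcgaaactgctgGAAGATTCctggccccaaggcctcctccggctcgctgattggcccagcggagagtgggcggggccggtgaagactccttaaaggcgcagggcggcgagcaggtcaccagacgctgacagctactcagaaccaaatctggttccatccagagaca
Hspa1b: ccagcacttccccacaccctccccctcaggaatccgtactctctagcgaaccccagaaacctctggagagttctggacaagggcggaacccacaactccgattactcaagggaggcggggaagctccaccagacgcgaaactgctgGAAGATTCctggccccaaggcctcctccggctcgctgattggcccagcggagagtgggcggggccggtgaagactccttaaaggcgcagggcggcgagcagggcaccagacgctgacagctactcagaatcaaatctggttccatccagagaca
Dnaja1: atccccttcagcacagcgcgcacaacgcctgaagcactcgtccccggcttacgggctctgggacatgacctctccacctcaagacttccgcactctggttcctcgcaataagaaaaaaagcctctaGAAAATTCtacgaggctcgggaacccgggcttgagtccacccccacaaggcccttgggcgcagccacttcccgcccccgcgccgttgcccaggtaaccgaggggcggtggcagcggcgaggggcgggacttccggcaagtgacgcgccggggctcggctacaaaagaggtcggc
The Hspa1a and Hspa1b windows were identical at 296 of 300 bases. In each, GAAGATTC began 104 bases before the start, and in Dnaja1 GAAAATTC began 124 bases before it. The 2-unit motif, searched on both strands, stood in 15.1% of 32817 promoter windows of this length, and in windows of Hspa1a and Dnaja1 among the named genes of the list. No window was matched for Hspa8. Outside the list it stood also in the window of Jun, 128 bases before the start, and in 2 of the 6 windows of Sgk1, genes described below with ratios of 1.60 and 1.37. The 3-unit element, GAA, TTC and GAA spaced 2 bases apart or its complement, occurs in 0.603% of windows and was in 0 of the 28 windows searched. A match of letters is no sign of binding. Reads from near-identical copies can be divided between them or dropped, so the levels of Hspa1a and Hspa1b are uncertain one by one. Hspa1b had 166 UMIs (73.2 CPM) in acute non-helpless and 2 UMIs (11.5 CPM) in non-shocked cells, a ratio of 6.39 (1.74 to 53.2).

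Among genes that glucocorticoids induce, some were higher and others were not. Tsc22d3, which encodes the glucocorticoid-induced leucine zipper protein GILZ, had 304 CPM (282 to 328) in acute non-helpless and 86.0 CPM (48.1 to 142) in non-shocked microglia, a ratio of 3.54 (2.13 to 6.36). Ddit4, an inhibitor of mTORC1 induced by glucocorticoids and other stresses, had 323 CPM (300 to 348; 733 UMIs) in acute non-helpless and 68.8 CPM (35.5 to 120; 12 UMIs) in non-shocked cells, a ratio of 4.70 (2.67 to 9.14). Both differences exceeded counting error. Dusp1, a phosphatase that switches off MAP kinases and that is also an immediate early gene, had 191 CPM in acute non-helpless and 22.9 CPM (4 UMIs) in non-shocked cells (ratio 8.33, 3.23 to 30.7). Nfkbia, the inhibitor of NF-kB, had a ratio of 2.05 (1.43 to 3.06). Smaller ratios were found for Rgs2, a regulator of G protein signalling (1.48, 1.12 to 2.00), and for the kinase Sgk1 (1.37, 1.09 to 1.75). Fkbp5, which encodes a partner of HSP90 at the glucocorticoid receptor and is among that receptor's best known targets, was under 100 CPM and is named after its values were seen. It had 32.6 CPM (25.6 to 41.0; 74 UMIs) in acute non-helpless and 74.5 CPM (39.7 to 127; 13 UMIs) in non-shocked cells, so it did not share the direction of Tsc22d3.

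In all, 4 of the 10 glucocorticoid response genes compared were at least 2-fold higher and 0 lower, beside 10.7% and 14.3% of all genes, with a median log2 ratio of 0.75. The median was 0.49 in ribosome-rich and 1.05 in ribosome-poor cells. It was -0.0055 when genes of low level were counted in, beside a median of -0.86 over all genes in that setting. Ddit4 had ratios of 3.60 (1.81 to 8.36) in ribosome-rich and 3.61 (1.14 to 15.1) in ribosome-poor cells, and Tsc22d3 had 2.22 (1.26 to 4.32) in ribosome-rich and 7.92 (2.39 to 41.2) in ribosome-poor cells. Nr3c1, the glucocorticoid receptor itself, had 113 CPM in acute non-helpless and 195 CPM in non-shocked cells. The glucocorticoid element, GNACA and TGTNC spaced 3 bases apart, stood in 0.475% of all promoter windows and, among the named genes of the heat shock, glucocorticoid and immediate early lists, only in a window of Sgk1, where it overlaps a 2-unit heat shock motif. The Dusp1 window at chr17:26508423-26508722, minus strand, is shown because it was the only one of these that held the cyclic AMP element TGACGTCA, in capitals, which began 143 bases before the start and is found in 1.79% of all windows.
Dusp1: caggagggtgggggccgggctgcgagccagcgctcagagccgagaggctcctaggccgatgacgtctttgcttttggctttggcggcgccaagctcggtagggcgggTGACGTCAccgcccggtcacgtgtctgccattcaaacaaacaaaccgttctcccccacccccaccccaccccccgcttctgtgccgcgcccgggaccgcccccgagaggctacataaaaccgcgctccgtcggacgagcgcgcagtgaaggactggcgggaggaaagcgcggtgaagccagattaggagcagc

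Immediate early genes were higher as well. Fos, a subunit of the AP-1 transcription factor, had 362 CPM (337 to 387; 820 UMIs) in acute non-helpless and 68.8 CPM (35.5 to 120; 12 UMIs) in non-shocked microglia, a ratio of 5.26 (2.99 to 10.2). Zfp36, which encodes tristetraprolin, a protein that destabilises cytokine mRNAs, had 1212 CPM in acute non-helpless and 378 CPM in non-shocked cells (ratio 3.20, 2.51 to 4.16). Rhob, a small GTPase, had 2744 CPM in acute non-helpless and 1198 CPM in non-shocked cells (ratio 2.29, 1.995 to 2.64). Jun, the AP-1 partner of Fos, had a smaller ratio of 1.60 (1.35 to 1.91), and Zfp36l1, a relative of Zfp36, one of 1.63 (1.35 to 1.98). Of 13 genes compared, 8 were at least 2-fold higher and 0 lower, beside 10.7% and 14.3% of all genes, with a median log2 ratio of 1.14, and the AP-1 subunit Jund and the survival gene Mcl1 lay below 0, at -0.52 and -0.59. The median was 1.21 in ribosome-rich cells (8 of 13 higher, beside 4.84% of all genes) and 1.46 in ribosome-poor cells (12 of 15 higher, beside 8.07%). Per cell, the list took a median of 1.05% of UMIs in acute non-helpless, 0.47% in batch 2 non-shocked and 1.13% in batch 3 non-shocked microglia. Rgs1, a regulator of chemokine receptor signalling outside the list, had 323 CPM in acute non-helpless and 80.3 CPM in non-shocked cells (ratio 4.02, 2.38 to 7.4).

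The non-shocked microglia of batch 3 gave another reference for the same acute non-helpless cells, so both comparisons share them, and batches 2 and 3 carry partly different gene symbols. Against batch 3, 56 of 1734 genes (3.23%) were at least 2-fold higher and 95 (5.48%) at least 2-fold lower. The heat shock list had 6 of 14 higher and 1 lower at a median of 0.90, the glucocorticoid list 3 of 11 higher and 1 lower at 0.36, and the immediate early list 0 of 14 higher and 1 lower at -0.18. Within the non-shocked label, batch 2 over batch 3 gave medians of -0.41 for heat shock, -0.20 for glucocorticoid and -1.32 for immediate early genes. Hspa1a was 24.1 CPM (17.3 to 32.7) in batch 3, so both non-shocked batches lay far below the 284 CPM of acute non-helpless microglia. Its other levels were 32.1 CPM in acute helpless, 179 in chronic non-helpless, 125 in chronic non-recovered and 195 in chronic recovered microglia. Dnajb1 had 81.2 CPM in batch 3, and its level of 208 CPM in chronic recovered microglia was close to the 203 CPM of acute non-helpless microglia. Dnaja1 had 91.8 CPM in batch 3 non-shocked cells, near its 80.3 CPM in batch 2, and between 214 and 245 CPM in the 4 other shocked libraries, all below the 311 CPM of the acute non-helpless library. Ddit4 had 23.5 CPM (16.8 to 32.1) in batch 3, below its 68.8 CPM in batch 2, and 1168 CPM in acute helpless, 138 in chronic non-helpless, 276 in chronic non-recovered and 156 in chronic recovered microglia. Tsc22d3 had 44.7 CPM in batch 3 and 169 to 426 CPM in the 4 other shocked libraries. Fos had another order, since at 407 CPM (377 to 438) batch 3 lay above the acute non-helpless level of 362 CPM, and the acute helpless library, at 104 CPM, lay near batch 2. Dusp1 had 128 CPM in batch 3 and 68.6 CPM in acute helpless cells, both between the 191 CPM of acute non-helpless and the 22.9 CPM of batch 2 cells.

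**Figure D3:**
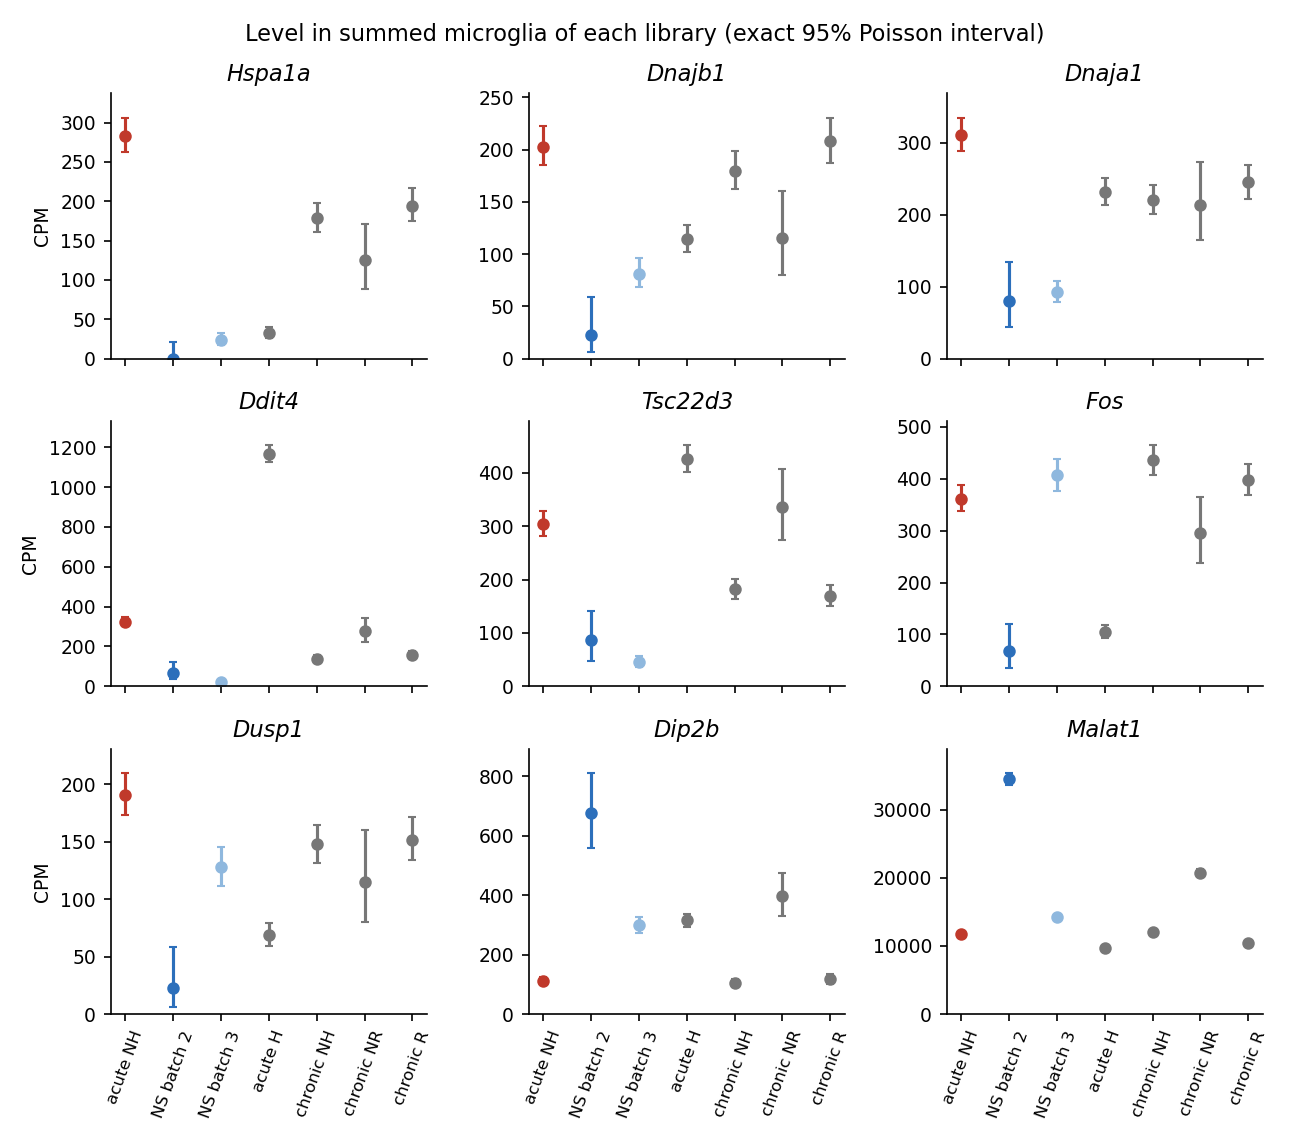
CPM in summed microglia of 9 genes, with exact 95% Poisson intervals as bars, in acute non-helpless (acute NH, red), non-shocked batch 2 (NS batch 2, blue), non-shocked batch 3 (light blue), acute helpless (acute H) and chronic non-helpless (NH), non-recovered (NR) and recovered (R) libraries. Hspa1a, Ddit4 and Tsc22d3 are low in both non-shocked batches, Fos only in batch 2 among them, and Malat1 is highest in batch 2 at 34479.8 CPM.

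A further group of higher genes encoded ribosomal proteins and subunits of the respiratory chain. Of 81 ribosomal protein genes, 59 were at least 2-fold higher and 0 lower, beside 10.7% and 14.3% of all genes, with a median log2 ratio of 1.19. Of 44 nuclear genes of oxidative phosphorylation, 18 were at least 2-fold higher and 0 lower, with a median of 0.80 and a range from 0.11 to 1.53. Atp5b, the catalytic subunit of ATP synthase, had 281 CPM in acute non-helpless and 97.4 CPM in non-shocked microglia (ratio 2.89, 1.79 to 4.99). Cox8a, a subunit of cytochrome c oxidase, had 385 CPM in acute non-helpless and 143 CPM in non-shocked cells (ratio 2.69, 1.81 to 4.17). Over all cells the 12 mitochondrially encoded genes did not share this direction, with 0 genes at least 2-fold apart and a median of -0.20. Within ribosome-rich cells, however, their median was 0.38, with 9 of 12 genes above 0, and within ribosome-poor cells it was -0.0082. Ferritin and oxidative stress genes also stood high, with 5 of 11 at least 2-fold higher and a median of 0.83. The ferritin chains Fth1 and Ftl1 had ratios of 2.51 (2.16 to 2.92) and 2.15 (1.86 to 2.50). Tmsb4x, an actin-binding peptide, had 8160.35 CPM in acute non-helpless and 3285 CPM in non-shocked cells (ratio 2.48, 2.29 to 2.70).

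Within each kind of cell the medians of the ribosomal protein, oxidative phosphorylation, ferritin, translation factor and proteasome lists were smaller than over all cells. By contrast, the immediate early median was larger in both kinds, and the glucocorticoid median was larger in ribosome-poor cells. In ribosome-rich cells 5 of 81 ribosomal protein genes were at least 2-fold higher, at a median of 0.48, and in ribosome-poor cells 4 of 51, at 0.14. The division of the cells used these genes, so their values within it are a description only. Oxidative phosphorylation genes had a median of 0.37 in ribosome-rich cells, with 4 of 50 at least 2-fold higher, and of 0.30 in ribosome-poor cells, with 1 of 8. These counts are near those of all genes, of which 4.84% in ribosome-rich and 8.07% in ribosome-poor cells were higher. The ferritin and oxidative stress list had 0 members at least 2-fold apart in either kind of cell, with medians of 0.39 and 0.32. Translation factors, 6 of 25 higher over all cells at a median of 0.39, and proteasome subunits, 3 of 15 at 0.60, had medians of 0.056 and 0.080 in ribosome-rich cells. Atp5b had a ratio of 1.91 (1.11 to 3.61) in ribosome-rich cells and, unlike the medians, a larger one in ribosome-poor cells, at 4.13 (1.33 to 17.0; 16 UMIs in acute non-helpless and 4 in non-shocked cells). Fth1 had ratios of 1.66 (1.40 to 1.98) in ribosome-rich and 1.45 (0.947 to 2.23) in ribosome-poor cells.

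**Figure D4:**
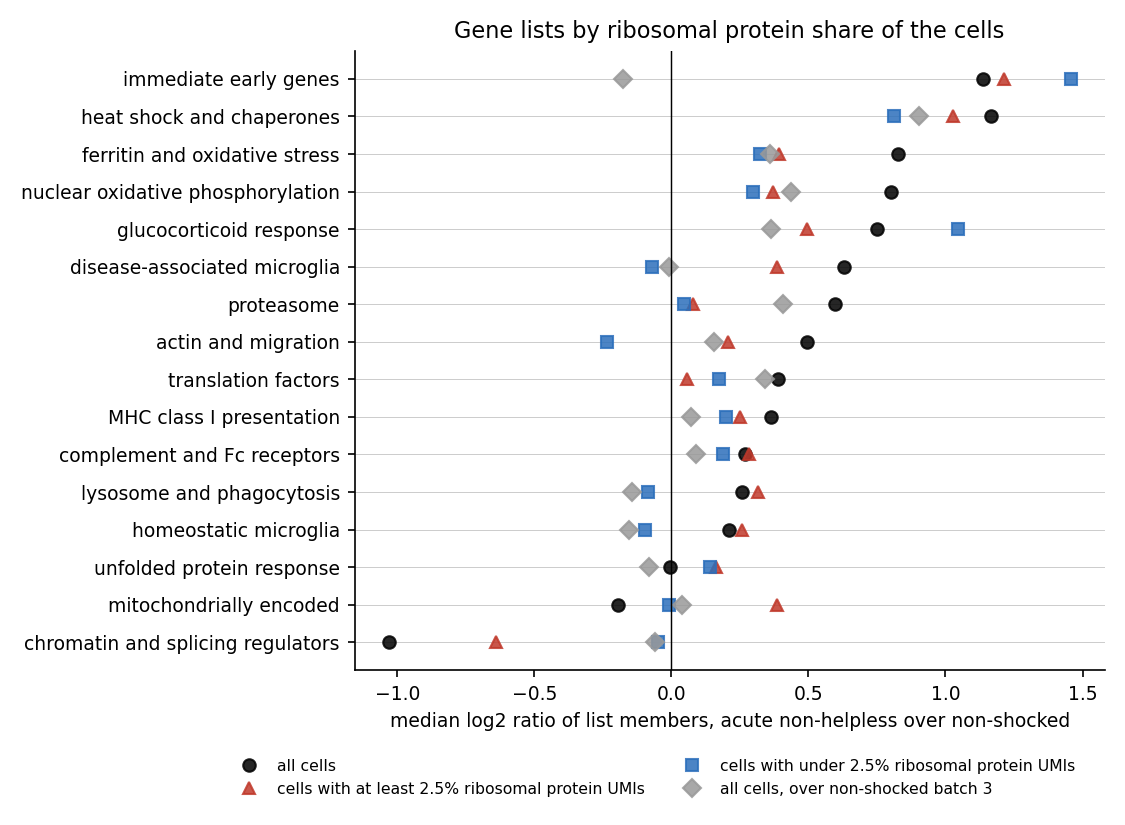
Median log2 ratio of the measured members of 16 gene lists, for acute non-helpless over batch 2 non-shocked microglia in all cells (circles), in ribosome-rich cells (triangles) and in ribosome-poor cells (squares), and over batch 3 non-shocked microglia (diamonds). Heat shock genes lie between 0.81 and 1.17 in all 4, immediate early genes above 1 in 3 and at -0.18 over batch 3, and chromatin and splicing regulators near 0 in ribosome-poor cells and over batch 3.

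Lower in acute non-helpless microglia were the nuclear long noncoding RNA Malat1 and mRNAs of chromatin and splicing regulators. Malat1 had 11715 CPM in acute non-helpless and 34479.8 CPM in non-shocked cells, 2.94-fold (2.86 to 3.03) lower in the acute non-helpless cells. Of 35 chromatin and splicing regulators 18 were at least 2-fold lower and 0 higher, beside 14.3% and 10.7% of all genes, with a median log2 ratio of -1.03. Kmt2a, a histone H3 lysine methyltransferase, had 39.3 CPM in acute non-helpless and 172 CPM in non-shocked cells, 4.38-fold (2.80 to 6.69) lower. The RNA helicase Ddx17 had 93.5 CPM in acute non-helpless and 349.7 CPM in non-shocked cells, 3.74-fold (2.77 to 4.99) lower, while its paralog Ddx5 had 1476 CPM in acute non-helpless and 1479 CPM in non-shocked cells. Dip2b, the lowest ratio of all, had 110 CPM (96.6 to 124) in acute non-helpless and 676 CPM (560 to 810) in non-shocked cells, 6.16-fold (4.90 to 7.70) lower. Cerk, a ceramide kinase, and Lrrc58 were 4.73-fold (3.21 to 6.84) and 4.44-fold (3.19 to 6.11) lower.

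These differences, too, were smaller among ribosome-poor cells. In ribosome-poor cells Malat1 stood at 48323 CPM in acute non-helpless and 45851 CPM in non-shocked microglia, and in ribosome-rich cells at 10300.3 CPM in acute non-helpless and 23133 CPM in non-shocked microglia. The chromatin and splicing list had a median of -0.051 in ribosome-poor cells, with 0 of 40 genes at least 2-fold lower beside 6.61% of all genes, and of -0.64 in ribosome-rich cells, with 10 of 30 lower beside 9.78%. Dip2b remained lower in both, 4.85-fold (3.43 to 6.72) in ribosome-rich and 3.26-fold (2.00 to 5.51) in ribosome-poor cells, as did Lrrc58, 4.42-fold (2.80 to 6.74) and 3.27-fold (1.44 to 8.32). Phf20l1, a reader of histone methylation, was 4.03-fold (2.17 to 7.0) lower in ribosome-rich and 4.60-fold (1.53 to 18.6) lower in ribosome-poor cells. Cdk6, a cyclin-dependent kinase, was 4.88-fold (2.66 to 8.4) lower in ribosome-rich cells but had a log2 ratio of 0.33 in ribosome-poor cells. Across libraries, Dip2b had 298 CPM in batch 3 non-shocked, 315 in acute helpless and 398 in chronic non-recovered microglia, against 103 in chronic non-helpless and 118 in chronic recovered microglia. The 110 CPM of acute non-helpless microglia lay between the last pair.

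The ratio also varied with gene length. Of the genes compared, 1819 of 1822 had a span in GENCODE M21, and without ribosomal protein and mitochondrially encoded genes 1717 remained. The median span was 6.45 kb for the 133 genes at least 2-fold higher, 62.6 kb for the 259 at least 2-fold lower and 24.3 kb for all. Genes under 10 kb had a median log2 ratio of 0.49, those of 10 to 30 kb 0.075, those of 30 to 100 kb -0.45 and those of 100 kb or more -0.77. Spearman's rho between span and log2 ratio was -0.54 over all cells, -0.38 in ribosome-rich and -0.046 in ribosome-poor cells, over 1717 genes that share the same 2 libraries. With the length of the longest annotated transcript in place of the span, rho was -0.66, -0.49 and -0.070 in the same order. The correlation with length was thus near 0 among ribosome-poor cells. Those cells held only 84369 UMIs in acute non-helpless and 87130 in non-shocked microglia, and counts under 3 were set to 3. The median of genes under 10 kb there, 0.046, is also the log2 ratio that equal or floored counts give. How far this flattened the drop with length was not tested.

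**Figure D5:**
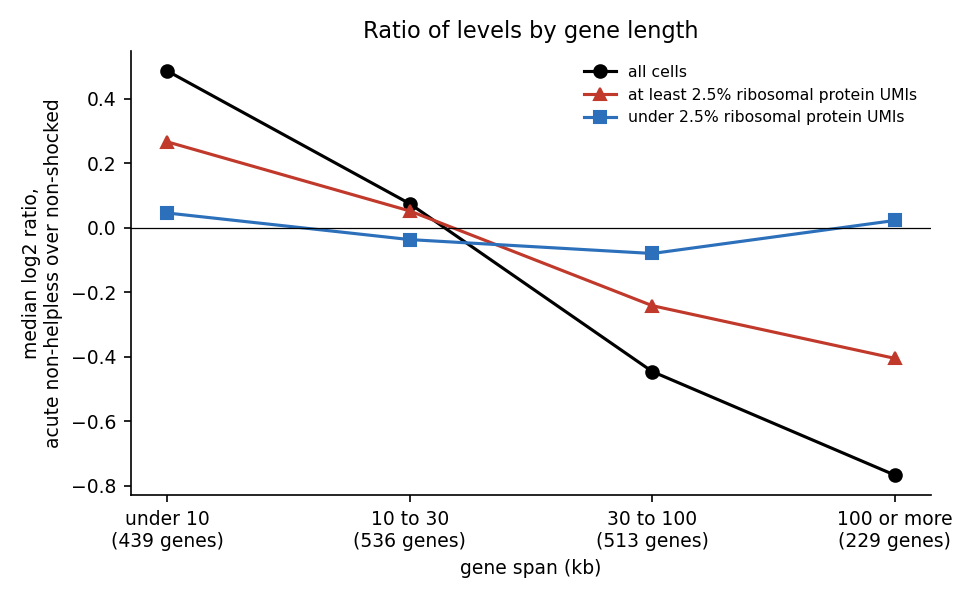
Median log2 ratio of acute non-helpless over non-shocked batch 2 microglia for genes in 4 classes of gene span in kb, without ribosomal protein and mitochondrially encoded genes, in all cells (circles), ribosome-rich cells (triangles) and ribosome-poor cells (squares). The line for all cells runs from 0.49 to -0.77, and the line for ribosome-poor cells stays between -0.079 and 0.046.

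The lists of microglial function are set beside the 10.7% of all genes that were at least 2-fold higher and the 14.3% that were lower. Of 35 homeostatic microglial genes 1 was at least 2-fold higher, the signalling adaptor Tyrobp at 2.22-fold (1.93 to 2.55), and 1 at least 2-fold lower, the transcription factor Mef2a at 3.44-fold (2.93 to 4.02). Their median was 0.21 over all cells, 0.26 in ribosome-rich and -0.098 in ribosome-poor cells. Cst3, the protease inhibitor cystatin C and the most abundant member, had 55237 CPM in acute non-helpless and 32319 CPM in non-shocked cells, but among ribosome-poor cells 19604 CPM in acute non-helpless and 18524 CPM in non-shocked cells. The purinergic receptor P2ry12 had a ratio of 1.38 (1.28 to 1.48) over all cells and of 0.710 (0.596 to 0.844) in ribosome-poor cells. Disease-associated microglial genes had 5 of 17 at least 2-fold higher at a median of 0.63, with Lyz2 (4.15, 2.08 to 9.66), Fth1 and Tyrobp among them, and a median of -0.071 in ribosome-poor cells. Complement and Fc receptor genes had 0 of 12 higher and 1 lower, the integrin Itgam, at 190 CPM in acute non-helpless and 522 CPM in non-shocked cells. Itgam had 171 CPM in batch 3 non-shocked cells and 148 to 214 CPM in the 4 other libraries, so batch 2 stood apart. Class I antigen presentation had 1 of 13 genes higher (the immunoproteasome subunit Psmb8), lysosome genes 2 of 31 (the proton pump subunits Atp6v1g1 and Atp6v0c), and purinergic and neurotransmitter sensing 0 of 10 in either direction. Only 3 cytokine genes (Tgfb1, Ccl6 and Ccl9) reached 100 CPM, with 0 at least 2-fold apart.

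Class II antigen presentation shows how few cells can set a level. Cd74, the invariant chain, had 191 CPM (434 UMIs) in acute non-helpless and 28.7 CPM (5 UMIs) in non-shocked microglia, a ratio of 6.68 (2.84 to 20.7), and was the only 1 of 6 genes of its list at least 2-fold higher. However, 354 of its 434 UMIs lay in 5 of 569 cells, with up to 191 in 1 cell, and the authors' cluster 5 had 1043 CPM against 12.3 to 118 CPM in clusters 1, 2 and 3. Apoe was also concentrated, with 541 of 848 acute non-helpless UMIs and 89 of 92 non-shocked UMIs in 20 cells each, and its ratio was 2.09 (1.28 to 3.67) in ribosome-rich and 0.163 (0.0807 to 0.302) in ribosome-poor cells. Hspa1a, Dnajb1, Fos and Ddit4 were spread more widely on the acute non-helpless side, with 30.2%, 21.7%, 23.8% and 23.9% of their UMIs there in the 20 highest cells. On the non-shocked side, Dnajb1 had its 4 UMIs in 3 of 123 cells, and Fos and Ddit4 their 12 UMIs each in 6 cells. Their ratios therefore rest on few non-shocked cells, and the intervals do not cover the spread between cells.

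Within the acute non-helpless library the stress genes were found in every cluster. Hspa1a ranged from 236 CPM in cluster 3 to 377 CPM in cluster 5, Dnajb1 from 146 CPM in cluster 5 to 232 CPM in cluster 1, and Dnaja1 from 243 to 345 CPM in these same clusters. In the 56 non-shocked batch 2 cells with at least 1000 UMIs, Hspa1a had 0 CPM (upper limit 26.2), Dnajb1 28.4 CPM (7.73 to 72.6) and Dnaja1 78.0 CPM (38.9 to 139.5). In the 40 cells with under 500 UMIs, the 12891 UMIs in sum left an upper limit of 286 CPM for Hspa1a and Dnajb1, both at 0, and of 560 CPM for Dnaja1, so a difference from those cells was not detectable at this depth. Cluster 3 had a median of 1573 UMIs per cell and a median ribosomal protein share of 1.33%, against 1.69% on the non-shocked side. Over summed UMIs, on which the levels rest, the order was reversed, with 5.19% in cluster 3 and 3.56% on the non-shocked side. The Malat1 level of cluster 3 was 34731 CPM, close to the non-shocked 34479.8 CPM, while clusters 1, 2 and 5 had 8221 to 10318 CPM. Cluster 3 had 419 CPM of Fos, 336 CPM of Dusp1 and 218 CPM of Tsc22d3. Ribosome-poor non-shocked cells of batch 3 had 615 CPM of Fos and 214 CPM of Dusp1, but 42.1 CPM of Tsc22d3 and 36.5 CPM of Hspa1a. In acute non-helpless cells with under 1500 UMIs (50 cells, 60331 UMIs), Hspa1a had 564 CPM, Fos 862 CPM and Dusp1 431 CPM.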

How the data were processed

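The deposited files give raw UMI counts per gene and cell, without normalization by the authors, and metadata with cell type, cluster, batch and library, per the file headers. The build was mm10 and the tools included Seurat 2.3.4 and Cell Ranger 2.2.0, per the submitters' processing notes. The rules for cell filters, clusters and types are not given in the labels or file headers. The members and gene lists were chosen with earlier results of these data known.

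Raw counts were summed over the microglia of each side (2267306 and 174450 UMIs) and scaled to CPM with Python 3.11.15, NumPy 2.4.6, SciPy 1.17.1 and pandas 2.3.3. Genes with a mean of at least 100 CPM of the 2 sides were compared. This rule treats both sides alike, but a gene can pass it through a high level on 1 side only. Hspa1a passed with 284 CPM in acute non-helpless and 0 CPM in non-shocked cells, and Kmt2a with 39.3 CPM and 172 CPM in the same order. Dnajb1 and Dusp1 also passed through the acute non-helpless side, with 203 and 191 CPM there and 22.9 CPM each in non-shocked cells. Intervals of ratios are exact and conditional on the total count, those of levels exact Poisson and those of shares Clopper-Pearson. In log2 ratios a count under 3 was set to 3. No test was run between 1 library and 1 library, and a 2-fold difference is a size, not a call of significance. Ratio and interval code was tested on simulated data. Doublets were kept. Named genes were the 15 highest and 15 lowest log2 ratios over all cells, the 10 highest and 10 lowest in ribosome-rich cells, and up to 6 members of each of 26 lists by level and by distance. Ribosomal protein, mitochondrially encoded, immunoglobulin, T cell receptor, haemoglobin and unnamed genes were described only as groups. Hspa1b, Hsp90aa1, Hsp90ab1, Hspe1, Fkbp5, Nr3c1 and Jund lie outside this rule and were named after their values were seen. Alternatives were equal weight per cell, thinning to 500 UMIs, limits on depth, ribosomal and mitochondrial share, a marker check, Scrublet (Scanpy 1.11.5, 20 components), other scalings and minima, and other non-shocked cells. The windows of 1000 to 3000 UMIs and of at least 1000 UMIs in ribosome-rich cells were added after seeing the data. Gene spans came from GENCODE M21, matched by symbol or RefSeq synonym (99.8% matched), and promoters from RefSeq GRCm38.p6, matched for 17 of 18 genes. The 2-unit heat shock motif was added after seeing that the 3-unit motif was absent.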

Additional observations from a re-analysis of the deposited data

How the results depend on the processing

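With cells restricted by mitochondrial share, depth of at least 1000 UMIs or markers, without doublets, with each cell weighted equally, or with the scale taken without ribosomal and mitochondrial genes or by median of ratios, the counts of higher and lower genes and the medians of the heat shock, glucocorticoid, immediate early, homeostatic, and chromatin and splicing lists kept their direction, with counts within 1.5 times those reported. The counts moved most with each cell weighted equally, to 256 higher and 346 lower genes. Cells with 1000 to 3000 UMIs gave 210 higher and 241 lower genes and medians of 1.17 for heat shock, 1.23 for immediate early and 1.36 for glucocorticoid genes, the last above the reported 0.75. In ribosome-rich cells 85 genes were higher and 172 lower. With at least 1000 UMIs as well, 84 were higher and the chromatin and splicing median was -0.50. In ribosome-poor cells 136 were lower, and medians were 1.46 for immediate early, -0.098 for homeostatic and -0.051 for chromatin and splicing genes. Cells thinned to 500 UMIs gave 290 higher and 408 lower genes. A minimum of 50 CPM gave 351 higher and 695 lower genes and a heat shock median of 0.64, and 200 CPM gave 112 and 71 genes. With no minimum there were 660 higher and 6169 lower genes, since counts under 3 are raised to 3 and these weigh most on the shallow non-shocked side. The heat shock median was then 0.61 and the glucocorticoid median -0.0055, beside -0.86 over all genes in this setting.

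Against batch 3 non-shocked microglia 56 genes were higher and 95 lower, with medians of -0.18 for immediate early, -0.15 for homeostatic and -0.060 for chromatin and splicing genes. Against all non-shocked microglia there were 62 and 90 genes, and these medians were -0.078, -0.12 and -0.087. Disease-associated genes turned to -0.071 in ribosome-poor cells and -0.0081 against batch 3. Single log2 ratios that changed sign against batch 3 were Cd74 -0.012, Fos -0.17, Lyz2 -0.23, Zfp36 -0.091, Naip6 0.57 and Itgam 0.15, and against all non-shocked cells Fos -0.053 and Lyz2 -0.12. In ribosome-poor cells they were Lyz2 -0.54, Cdk6 0.33, Nrd1 0.18, Rock2 0.53, Usp24 0.59, Psmb8 -0.37, Eif5a -0.15, Btf3 -0.37, Psma7 -0.28, Malat1 0.076, Gclm -0.51 and H2afz -0.69. Intervals are not given for these sign changes, and several in ribosome-poor cells rest on few UMIs and may lie within counting error. Lyz2, for example, had 4 UMIs in ribosome-poor acute non-helpless cells, while Malat1 had 4077. Apart from what the minimum itself brings about, the cause was not tested.

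No cluster had 20 cells on both sides, so the alternative within clusters gave no value. No paired analysis was possible because each side had 1 library. The non-shocked side limits precision: 3 of its UMIs are 17.2 CPM, and the median gene compared had 31.5 UMIs there. Gene symbols differ in part between batches 2 and 3, so ratios to batch 3 of genes under other symbols are not comparable.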
